A study of Mus musculus with 7 samples.

Results

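The genes Csf1r, Adgre1, Maf, Cd14, Mpeg1, Marco, Vsig4, Clec4f and Ly6c2, by which monocytes, macrophages and Kupffer cells (KC, the resident macrophages of the liver) are commonly recognised, were followed through neutrophils sorted from injured livers. The 9 genes were chosen with earlier results of these data known. They were looked up in the expression table by their symbols, and all 9 were among its 16047 rows. The neutrophils came from 8- to 12-week-old male C57BL/6 mice at 24 h after acetaminophen-induced liver injury (AILI), which was set off in both groups by 300 mg/kg of acetaminophen following an overnight fast. One group of 4 mice was given PBS (replicates 5 to 8). The other group of 3 mice (replicates 2 to 4) was given 400 µL of medium conditioned with MC-21, an antibody to the chemokine receptor CCR2, at 29 µg/mL, from 12 h before acetaminophen and every 24 h thereafter, and is described as deficient for infiltrating Ly6Chi monocytes. Each mouse gave 1 library of 50000 cells sorted as CD11b+ Ly6Clo CX3CR1-GFP- Ly6G+. The gate names a GFP reporter of Cx3cr1, and the study kept both wild-type and Cx3cr1 gfp/+ mice, but the labels of these libraries give the strain only.

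Ly6Chi monocytes are short-lived blood cells that leave the bone marrow by means of CCR2, enter injured tissue and turn into monocyte-derived macrophages (MoMF). KC settle in the liver sinusoids before birth, need signals through the CSF1 receptor, and carry surface receptors with which they catch bacteria, complement-coated particles and desialylated glycoproteins from the blood. Neutrophils share part of this equipment, among it the LPS co-receptor CD14, so that a transcript on such a list need not come from another cell. In bulk RNA, fewer cells of a type and less RNA per cell cannot be told apart.

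Levels are RPKM values, that is, reads scaled to the length of the transcript and to the mapped reads of the library. From the steps in which low values occur, 1 RPKM in a transcript of 1 kb was worth between 1.59 reads, in MC-21 replicate 3, and 3.96 reads, in PBS replicate 8. All 12 listed neutrophil markers were abundant enough to be tested. Their summed level was between 18610 and 31715 RPKM in PBS neutrophils and between 28495 and 42142 RPKM in MC-21 neutrophils. The sum was dominated by S100a9, Retnlg and S100a8, with means of 15925, 3541 and 3167 RPKM in PBS neutrophils. The lowest were Camp and Ltf, with 29.9 and 5.53 RPKM there. Neutrophil RNA was thus present in every library, but the purity of the sort was not tested. Ly6g, the gene of the gated antigen, had 32.5 ± 17.6 RPKM (SD, n = 4) in PBS neutrophils and 44.5 ± 21.3 RPKM (SD, n = 3) in MC-21 neutrophils. Itgam, the gene of CD11b, had 63.7 ± 14.8 and 80.5 ± 8.59 RPKM. Ptprc encodes CD45, which was gated in the study's sort for PCR. It varied widely, with 9.77, 57.3, 59.3 and 21.2 RPKM in PBS replicates 5 to 8 and 50.1, 20.4 and 9.77 RPKM in MC-21 replicates 2 to 4. The cause of this spread was not tested. Transcripts of liver endothelium and hepatocytes were present in all libraries. The 8 endothelial markers summed to between 1565 and 3185 RPKM in PBS and between 1709 and 2735 RPKM in MC-21 neutrophils, and the 7 hepatocyte markers in the table summed to between 275 and 625 RPKM and between 278 and 435 RPKM. Values between genes are compared per transcript length, although the reads of 3′ libraries come from transcript ends.

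The 9 genes lay at very different levels. In PBS neutrophils Cd14 was by far the highest, with 611 ± 172 RPKM, which is rank 123 of the 16047 rows. Csf1r (62.2 ± 16.6 RPKM), Ly6c2 (50.5 ± 10.5 RPKM) and Marco (34.9 ± 4.15 RPKM) followed, and of these neighbours Csf1r overlapped with Ly6c2, and Ly6c2 with Marco, in their ranges over the 4 libraries (all values mean ± SD, n = 4). Mpeg1 (14.0 ± 4.59 RPKM), Adgre1 (12.9 ± 6.49 RPKM) and Maf (12.2 ± 5.88 RPKM) did not differ from one another beyond their spread, and the range of Maf overlapped with that of Clec4f (7.16 ± 3.07 RPKM). Vsig4 was the lowest, at 1.00 ± 0.750 RPKM. In MC-21 neutrophils (n = 3) the order was the same at both ends, with Cd14 at rank 50 and Vsig4 at 0.316 ± 0.391 RPKM.

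**Figure D1:**
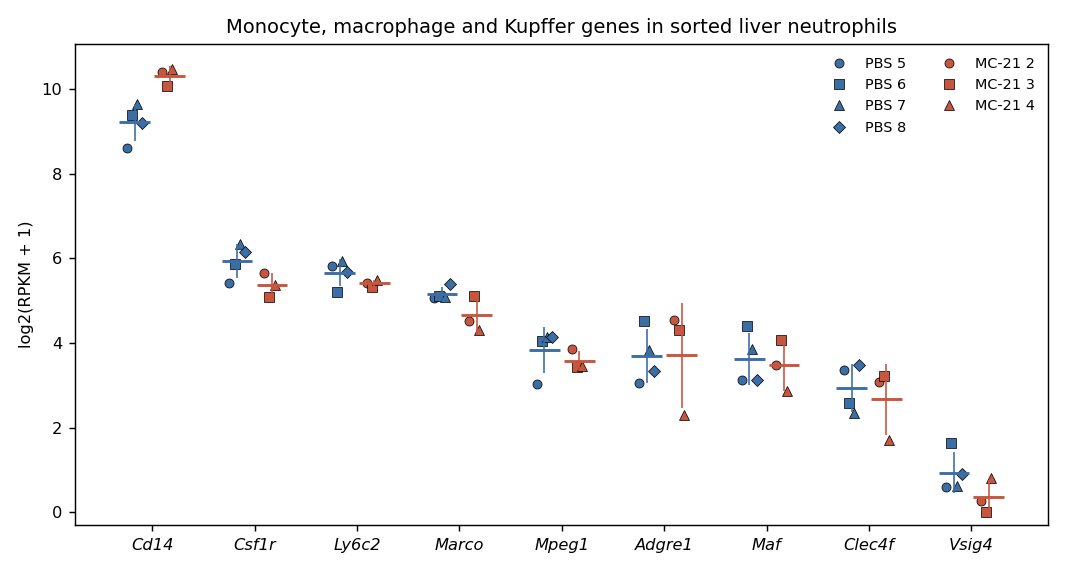
Level of each of the 9 genes in each library, as log2(RPKM + 1) on the vertical axis. Points are single libraries (blue, 4 PBS; red, 3 MC-21, with the shape giving the replicate), horizontal bars the group means and vertical lines 1 SD. Cd14 is the only gene of the 9 whose MC-21 points (1071 to 1430 RPKM) all lie apart from its PBS points (391 to 800 RPKM).

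Between the groups, Cd14 was higher in every MC-21 library than in any PBS library, and no gene of the 9 was lower in all of them. Differences are MC-21 minus PBS on log2(RPKM + 1), from limma over the 9594 genes whose mean over the libraries reached 1 RPKM. Of the 9 genes 8 passed that filter (all but Vsig4), and 6 of the 8 had a log2 fold change below 0, with a median of -0.26. Over all genes tested the median was -0.15, and 69.4% were below 0. With p-values adjusted by Benjamini-Hochberg across the whole table, limma gave an adjusted p under 0.05 for 0 of the 8, against 0.625% of all genes tested, while 3 of the 8 (Csf1r, Marco and Cd14) had an unadjusted p under 0.05, against 14.7% of all genes tested. An ordinary linear model without moderated variances also called 0 of the 8 after adjustment. The study's cutoffs, here applied to the limma fit, were a 2-fold change and an unadjusted p under 0.05, and 1 of the 8 passed them, Cd14, which was higher (2.7% of all genes tested passed, 1.02% as higher). The groups did not overlap in 1 of the 8, again Cd14, against 13.3% of all genes tested (10.2% lower and 3.1% higher in MC-21).

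**Figure D2:**
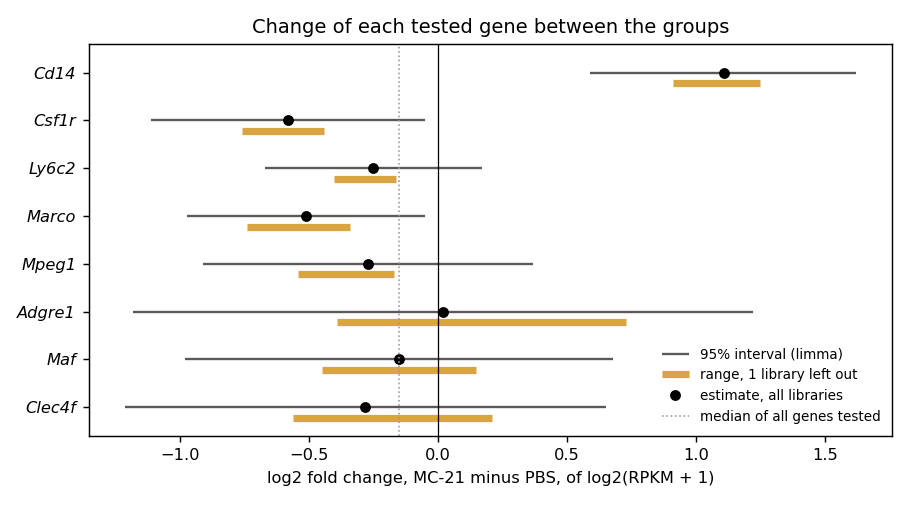
Difference between the groups for the 8 genes tested, as log2 fold change (MC-21 minus PBS) of log2(RPKM + 1) on the horizontal axis. Points are estimates over all 7 libraries, thin lines limma's 95% intervals, thick bars the range over fits that each lack 1 library, and the dotted line the median of all genes tested (-0.15). Only the interval of Cd14 (0.59 to 1.62) lies wholly above 0, the intervals of Csf1r and Marco end at -0.05, and the thick bars of Adgre1, Maf and Clec4f cross 0.

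Csf1r, which encodes the receptor for CSF1 and IL-34 that monocytes and macrophages need to live, had 41.5, 57.2, 79.7 and 70.5 RPKM in PBS replicates 5 to 8 and 49.1, 32.9 and 40.0 RPKM in MC-21 replicates 2 to 4. PBS replicate 5 lay among the MC-21 libraries and MC-21 replicate 2 above PBS replicate 5, so that the groups overlapped. These values stood for 445, 738, 821 and 1083 reads in the PBS libraries and 680, 203 and 431 reads in the MC-21 libraries, so that counting error was small against the spread between mice. Its log2 fold change was -0.58 (SE 0.23, 95% interval -1.11 to -0.05), with an unadjusted p of 0.0345 and an adjusted p of 0.307 by limma. Under the alternatives tried the adjusted p was between 0.196 and 0.565. The gene lies on chromosome 18 from 61265226 to 61291803 on the plus strand (coordinates here and below are of mm9).

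The ligands and partners of the CSF1 receptor were called in neither direction. Of the 9 genes on that list 8 were tested, with a median log2 fold change of 0.20. By limma 0 had an adjusted p under 0.05 and 3 an unadjusted p under 0.05. For this list and those below, the shares of all genes tested were 0.625% after adjustment and 14.7% at an unadjusted p under 0.05. Csf1, the ligand, had 106 ± 40.0 RPKM (SD, n = 4) in PBS neutrophils and 176 ± 19.5 RPKM (SD, n = 3) in MC-21 neutrophils (log2 fold change 0.79, SE 0.25, adjusted p = 0.211 by limma). Il34, the other ligand, was under 1 RPKM in every library. Spi1, which encodes the myeloid factor PU.1, had 146 ± 9.01 and 129 ± 18.0 RPKM, and Tyrobp, an adaptor of many myeloid receptors, had 5085 ± 1088 and 6145 ± 514 RPKM.

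Adgre1, listed as Emr1 in the older annotation, encodes F4/80, the adhesion receptor by which mouse macrophages are most often stained. It had 7.36, 21.9, 13.2 and 9.18 RPKM in PBS replicates 5 to 8 and 22.2, 18.8 and 3.88 RPKM in MC-21 replicates 2 to 4. Both the highest and the lowest value were those of MC-21 libraries, and the highest was 5.72 times the lowest. The recovered reads were 66, 237, 114 and 118 in PBS and 257, 97 and 35 in MC-21 libraries. The log2 fold change was 0.02 (SE 0.53, 95% interval -1.18 to 1.22, adjusted p = 0.988 by limma), and its sign turned with the library left out, from -0.39 to 0.73, and with a pseudocount of 0.1, to -0.01. The interval leaves room for a change of more than 2-fold in either direction. Adgre1 lies on chromosome 17 from 57498109 to 57622952 (plus strand). Of 5 other adhesion receptors of leukocytes, 3 were tested and 0 called after adjustment, with 1 at an unadjusted p under 0.05: Adgre4, its close relative, had 4.09 ± 0.562 RPKM (SD, n = 4) in PBS and 2.05 ± 0.398 RPKM (SD, n = 3) in MC-21 neutrophils (log2 fold change -0.74, SE 0.19, adjusted p = 0.145 by limma), with all MC-21 libraries lower. Adgre5, which encodes CD97, was more abundant, at 272 ± 49.5 and 298 ± 14.8 RPKM.

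Maf, which encodes c-MAF, a transcription factor of resident macrophages, had 7.65, 20.0, 13.5 and 7.76 RPKM in PBS replicates 5 to 8 and 10.1, 15.9 and 6.32 RPKM in MC-21 replicates 2 to 4. Replicate 6 was the highest of the PBS and replicate 3 of the MC-21 libraries, and the groups overlapped over most of their range. The reads were 77, 243, 131 and 112 in PBS and 131, 92 and 64 in MC-21 libraries. Between the groups the log2 fold change was -0.15 (SE 0.37, 95% interval -0.98 to 0.68, adjusted p = 0.876 by limma), equal to the median of all genes tested, and it became 0.01 when libraries were centred on their medians or quantile normalized. Maf lies on chromosome 8 from 118206842 to 118231694 on the minus strand. Of its small relatives, which lack the activating domain, Mafg had 37.9 ± 7.82 RPKM (SD, n = 4) in PBS and 42.0 ± 9.25 RPKM (SD, n = 3) in MC-21 neutrophils, and Mafg, Maff and Mafk had log2 fold changes of 0.14, 0.46 and -0.06 with adjusted p-values between 0.356 and 0.882 by limma.

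**Figure D3:**
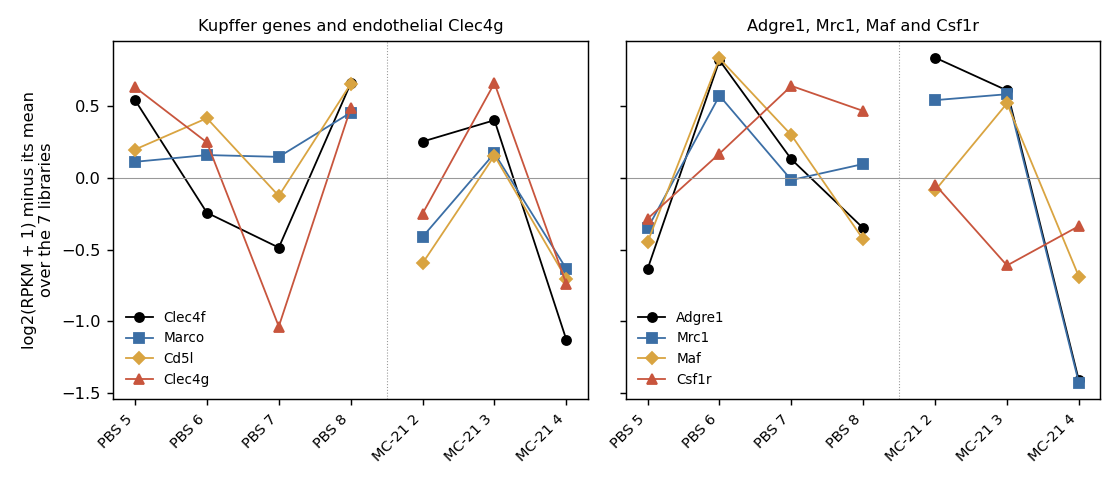
Profiles over the 7 libraries, as log2(RPKM + 1) minus the gene's mean over the libraries (vertical axis), with PBS libraries left of the dotted line and MC-21 libraries right of it. Left, the Kupffer genes Clec4f, Marco and Cd5l with the endothelial gene Clec4g; right, Adgre1, Mrc1, Maf and Csf1r. Adgre1 and Mrc1 dip together in MC-21 replicate 4, where Adgre1 had 3.88 and Mrc1 6.02 RPKM, while Csf1r had 40.0 RPKM there. Mrc1 and Clec4g were chosen after the values were seen. The dip was not particular to Adgre1 and Mrc1: Cltc and Pts, not drawn, are nearer to Adgre1 and had 2.75 and 2.43 RPKM in that library.

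Cd14 encodes the co-receptor that passes LPS to TLR4, a marker of monocytes that activated neutrophils also express. It had 391, 671, 800 and 582 RPKM in PBS replicates 5 to 8 and 1345, 1071 and 1430 RPKM in MC-21 replicates 2 to 4. The groups did not overlap, and the lowest MC-21 library was above the highest PBS library. With the annotated transcript of 1572 bases these values correspond to between 1698 and 3621 reads in PBS and between 2679 and 7553 reads in MC-21 libraries. These are estimates, because whole reads could not be recovered for this gene. The log2 fold change was 1.11 (SE 0.23, 95% interval 0.59 to 1.62), a fold change of 2.15, with an unadjusted p of 0.000816 and an adjusted p of 0.0739 by limma. The two-sided exact permutation test gave p = 0.0286, which is the smallest p that this design can reach. The adjusted p was between 0.0465, with libraries centred on their medians, and 0.28. Leaving out 1 library at a time gave log2 fold changes from 0.91 to 1.25, and without PBS replicate 5 the change was less than 2-fold. Cd14 lies on chromosome 18 from 36884728 to 36886390 on the minus strand.

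The other genes of the LPS pathway differed little. Of 12 listed genes 9 were tested, with log2 fold changes between -0.12 and 0.30 and a median of 0.01. By limma 0 were called after adjustment (0.625% of all genes tested) and 0 had an unadjusted p under 0.05 (14.7% of all genes tested). The groups did not overlap in 0 of the 9, against 13.3% of all genes tested. With so few genes, counts of 0 are near these shares. Tlr4, the signalling receptor, had 3.40 ± 0.469 RPKM (SD, n = 4) in PBS and 3.87 ± 0.534 RPKM (SD, n = 3) in MC-21 neutrophils, and Tlr2 had 43.2 ± 6.80 and 47.3 ± 9.30 RPKM. Myd88, the adaptor of both, had 60.2 ± 5.34 and 57.3 ± 11.5 RPKM. Ly96, which encodes the MD-2 subunit of the receptor, was under 1 RPKM in every library. Within a library, the log2 ratio of Cd14 to Csf1r lay between 3.03 and 3.53 in PBS and between 4.75 and 5.13 in MC-21 libraries. This difference of 1.68 between the groups does not depend on scaling between libraries (two-sided exact permutation test, p = 0.0286, and 0.229 after Benjamini-Hochberg adjustment over the 8 genes compared with Csf1r). Cd14 alone was at the smallest p of this design, so that its adjusted p could not have been lower. For the other 7 genes the exact permutation p of the ratio to Csf1r was between 0.114 and 1.

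Mpeg1 encodes perforin-2, a pore-forming protein of phagocytes. It had 7.17, 15.6, 16.7 and 16.6 RPKM in PBS replicates 5 to 8 and 13.4, 9.71 and 9.95 RPKM in MC-21 replicates 2 to 4. PBS replicate 5 was below every MC-21 library and the other PBS libraries were above them. The reads were 86, 225, 193 and 285 in PBS and 207, 67 and 120 in MC-21 libraries. Its log2 fold change was -0.27 (SE 0.29, 95% interval -0.91 to 0.37, adjusted p = 0.702 by limma), and -0.54 without PBS replicate 5. Mpeg1 lies on chromosome 19 from 12535269 to 12539774 (plus strand).

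Marco, Vsig4 and Clec4f encode surface receptors of KC. Marco, a scavenger receptor for bacteria and particles, had 32.2, 33.3, 33.0 and 41.1 RPKM in PBS replicates 5 to 8 and 22.1, 33.6 and 18.8 RPKM in MC-21 replicates 2 to 4. MC-21 replicate 3 was at the level of the PBS libraries and the other MC-21 libraries were lower. Its reads were 177, 220, 174 and 323 in PBS and 157, 106 and 104 in MC-21 libraries. The log2 fold change was -0.51 (SE 0.21, 95% interval -0.97 to -0.05), with an unadjusted p of 0.0345 and an adjusted p of 0.307 by limma, and it ranged from -0.74 to -0.34 with a library left out. Marco lies on chromosome 1 from 122371115 to 122401661 on the minus strand. Of 10 other scavenger receptor genes, 7 were tested, 3 had an unadjusted p under 0.05 and 1 rose after adjustment, which was Olr1, the receptor for oxidised low-density lipoprotein. Olr1 had 2.53, 9.93, 6.64 and 3.75 RPKM in PBS replicates 5 to 8 and 34.0, 20.3 and 30.6 RPKM in MC-21 replicates 2 to 4 (log2 fold change 2.23, adjusted p = 0.0378 by limma), and its adjusted p was between 0.0532 and 0.13 without any 1 library other than PBS replicate 6. The study had itself named Olr1 from these libraries, so that it is no independent example. The others with an unadjusted p under 0.05 were Cxcl16, a scavenger receptor that is also a chemokine, with 40.5 ± 10.9 RPKM (SD, n = 4) in PBS and 20.1 ± 7.48 RPKM (SD, n = 3) in MC-21 neutrophils (log2 fold change -1.0, SE 0.28, adjusted p = 0.17 by limma), and Cd36, a fatty acid receptor, with a log2 fold change of 0.62 (adjusted p = 0.333 by limma). Scarb1 and Scarb2, of similar abundance to Cxcl16, had log2 fold changes of -0.10 and 0.07.

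Vsig4, which encodes the complement receptor CRIg of KC, was at the limit of detection. It had 0.505, 2.10, 0.525 and 0.881 RPKM in PBS replicates 5 to 8 and 0.195, 0 and 0.753 RPKM in MC-21 replicates 2 to 4. In whole reads these are 2, 10, 2 and 5 in PBS and 1, 0 and 3 in MC-21 libraries, 23 in all. The 0 of MC-21 replicate 3 allows up to 3 reads, or 1.316 RPKM at its depth, so that a level like that of most PBS libraries could not have been seen there. Vsig4 was under the filter on low values and was not in the limma fit reported here (two-sided exact permutation test on log2(RPKM + 1), p = 0.171), and no fold change is given at such counts. It lies on chromosome X from 93442542 to 93488777 (minus strand).

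Clec4f, a galactose-binding lectin that in mouse liver is restricted to KC, had 9.34, 5.00, 4.07 and 10.2 RPKM in PBS replicates 5 to 8 and 7.46, 8.38 and 2.25 RPKM in MC-21 replicates 2 to 4. MC-21 replicates 2 and 3 lay within the PBS range and MC-21 replicate 4 below it. The reads were 62, 40, 26 and 97 in PBS and 64, 32 and 15 in MC-21 libraries. Clec4f had a log2 fold change of -0.28 (SE 0.41, 95% interval -1.21 to 0.65, adjusted p = 0.794 by limma), and 0.21 without MC-21 replicate 4. It lies on chromosome 6 from 83594536 to 83606181 on the minus strand. Of 10 other lectin genes of the Clec4 group, 8 were tested and 0 called after adjustment by limma, with 2 at an unadjusted p under 0.05. Clec4g, the lectin of sinusoidal endothelium and the most abundant of them, had 1509, 1155, 474 and 1362 RPKM in PBS replicates 5 to 8 and 819, 1539 and 583 RPKM in MC-21 replicates 2 to 4. In the PBS group both Clec4f and Clec4g were lowest in replicate 7, but Clec4f was highest in replicate 8 and Clec4g in replicate 5, and in the MC-21 group both were lowest in replicate 4 and highest in replicate 3. This pair was set side by side after the values were seen, and Clec4g was in position 180 among the genes most like Clec4f (root mean square difference of centred log2(RPKM + 1) 0.388). The part of endothelial RNA in Clec4f was not tested. Clec4d and Clec4e, lectins of neutrophils and monocytes, had log2 fold changes of 0.30 and -0.38.

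Ly6c2 encodes the Ly6C antigen whose high level defines Ly6Chi monocytes and whose low level was part of the gate for these neutrophils. It had 55.4, 35.9, 60.1 and 50.4 RPKM in PBS replicates 5 to 8 and 41.7, 39.2 and 44.0 RPKM in MC-21 replicates 2 to 4. All MC-21 libraries lay within the PBS range, between PBS replicate 6 and the other PBS libraries. The log2 fold change was -0.25 (SE 0.19, 95% interval -0.67 to 0.17, adjusted p = 0.577 by limma), and it stayed between -0.40 and -0.16 over the fits without 1 library. Ly6c2 lies on chromosome 15 from 74938590 to 74942114 (minus strand), and with its annotated transcript of 796 bases the values correspond to between 95 and 159 reads in PBS and between 50 and 118 reads in MC-21 libraries.

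Part of the Ly6c2 transcript cannot be told from that of its neighbour Ly6c1, and how reads that match several places were counted is not given in the sources used here. The coding sequences of 396 bases differ at 9 positions (97.7% identity), 6 of them within the first 90 coding bases, and 252 of the 747 words of 50 bases in the Ly6c2 transcript (33.7%) also occur in Ly6c1. The first 90 coding bases in the mm9 annotation show how far apart the differences lie, with the differing bases in capitals and the rest in lower case.
Ly6c2: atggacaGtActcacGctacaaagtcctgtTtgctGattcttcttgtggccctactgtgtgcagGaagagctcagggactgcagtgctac
Ly6c1: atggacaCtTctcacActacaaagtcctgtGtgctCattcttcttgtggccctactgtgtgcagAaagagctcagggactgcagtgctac
Ly6c1 itself was listed at 2.07 ± 1.11 RPKM (SD, n = 4) in PBS and 2.15 ± 0.222 RPKM (SD, n = 3) in MC-21 neutrophils. Of the 6 other Ly6 genes listed, 5 were tested and limma called 0 after adjustment and 0 at an unadjusted p under 0.05. Ly6e and Ly6a, the most abundant, had log2 fold changes of 0.05 and -0.03.

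Some other genes of monocytes fell in MC-21 neutrophils. Of 11 genes of Ly6Chi and blood monocytes 10 were tested, and 3 fell and 0 rose after adjustment (0.427% of all genes tested fell), with a median log2 fold change of -0.76 and 9 of 10 below 0. Ccr2, the receptor that MC-21 binds, had 1.91, 3.26, 2.30 and 2.18 RPKM in PBS replicates 5 to 8 and 0.390, 0 and 0.200 RPKM in MC-21 replicates 2 to 4, which stand for 19, 39, 22 and 31 reads and for 5, 0 and 2 reads. It fell by 1.51 on the log2 scale (SE 0.23, adjusted p = 0.0263 by limma). F13a1, a coagulation factor subunit made by monocytes, fell by 1.63 (adjusted p = 0.0378 by limma), from between 32 and 55 reads to between 2 and 6 reads a library. Ms4a6c, a membrane protein of monocytes, fell by 1.79 (adjusted p = 0.00851 by limma), with 9.86 ± 1.55 RPKM (SD, n = 4) in PBS and 2.15 ± 0.619 RPKM (SD, n = 3) in MC-21 neutrophils. Cx3cr1, whose reporter was in the gate, had 2.10 ± 1.20 and 0.628 ± 0.164 RPKM (adjusted p = 0.242 by limma), and its groups did not overlap. Csf2ra and Irf8, which neutrophils also use, had log2 fold changes of -0.05 and -0.30, and Nr4a1, the factor of Ly6Clo monocytes, was at 1017 ± 123 and 804 ± 58.4 RPKM. The calls of Ccr2 and F13a1 depended on the processing, with adjusted p-values between 0.0551 and 0.0931 for Ccr2 without any 1 of PBS replicates 7 and 8 and MC-21 replicates 2, 3 and 4, and between 0.0571 and 0.122 for F13a1 without any 1 of these or PBS replicate 5.

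Some macrophage genes fell as well. Of 15 listed 14 were tested, 3 fell and 0 rose after adjustment, 12 of 14 were below 0 with a median log2 fold change of -0.88, and in 10 of 14 all MC-21 libraries were below all PBS libraries (10.2% of all genes tested). Fcgr1, the high-affinity IgG receptor CD64 of MoMF and KC, fell by 2.22 (SE 0.25, adjusted p = 0.00851 by limma), from 44, 79, 82 and 136 reads in the PBS libraries to 10, 6 and 10 reads in the MC-21 libraries. Trem2, a lipid-sensing receptor of macrophages, fell by 2.74 (SE 0.32, adjusted p = 0.00853 by limma), and without PBS replicate 8 its adjusted p was 0.0595. Axl, a receptor for apoptotic cells, fell by 1.62 (SE 0.21, adjusted p = 0.0139 by limma), and its adjusted p was between 0.0551 and 0.0729 without any 1 of PBS replicates 7 and 8 and MC-21 replicates 2 and 4. Apoe, Lgals3 and Ctss, which are abundant in macrophages, had log2 fold changes of -0.65, -0.76 and -1.01 and adjusted p-values between 0.0837 and 0.145 by limma, each with all MC-21 libraries lower. Cd9 had a log2 fold change of 0.50. Fcgr1, Ctss and another gene counted here were named by the study from these libraries and are not independent of it. This list, the monocyte list above and the list of other KC genes below were chosen with earlier results of these data known. Their counts are therefore not independent of those results.

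Of 11 other KC genes 8 were tested, 1 fell and 0 rose after adjustment, and the median log2 fold change was -0.52. The gene that fell was Nr1h3, which encodes the oxysterol receptor LXR-alpha and is also used by other macrophages (34, 63, 61 and 91 reads against 12, 9 and 8 reads, log2 fold change -1.82, SE 0.26, adjusted p = 0.0172 by limma), and which the study had also named from these libraries. Its adjusted p was between 0.0571 and 0.0825 without any 1 of PBS replicates 7 and 8 and MC-21 replicates 2 and 4. Cd5l, a secreted protein of KC, had 24.9 ± 5.84 RPKM (SD, n = 4) in PBS and 15.6 ± 5.74 RPKM (SD, n = 3) in MC-21 neutrophils (log2 fold change -0.67, adjusted p = 0.285 by limma). Id3 and Id1 were at 408 ± 142 and 252 ± 38.8 RPKM in PBS neutrophils, with log2 fold changes of -0.89 and -0.13. These levels were far above that of Clec4f (7.16 RPKM), and the part of other cells' RNA in them was not tested. Without the filter on low values, or without moderated variances, none of the 7 falls named in these 3 lists had an adjusted p under 0.05 (0.0548 to 0.123 and 0.0813 to 0.196 by limma and the linear model). Timd4, which encodes the Tim4 protein that marks embryonic KC, was under 1 RPKM in every library, with 4, 2, 4 and 3 reads in PBS and 2, 1 and 4 reads in MC-21 libraries, and Cd163 and Siglec1 were under 1 RPKM throughout.

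**Figure D4:**
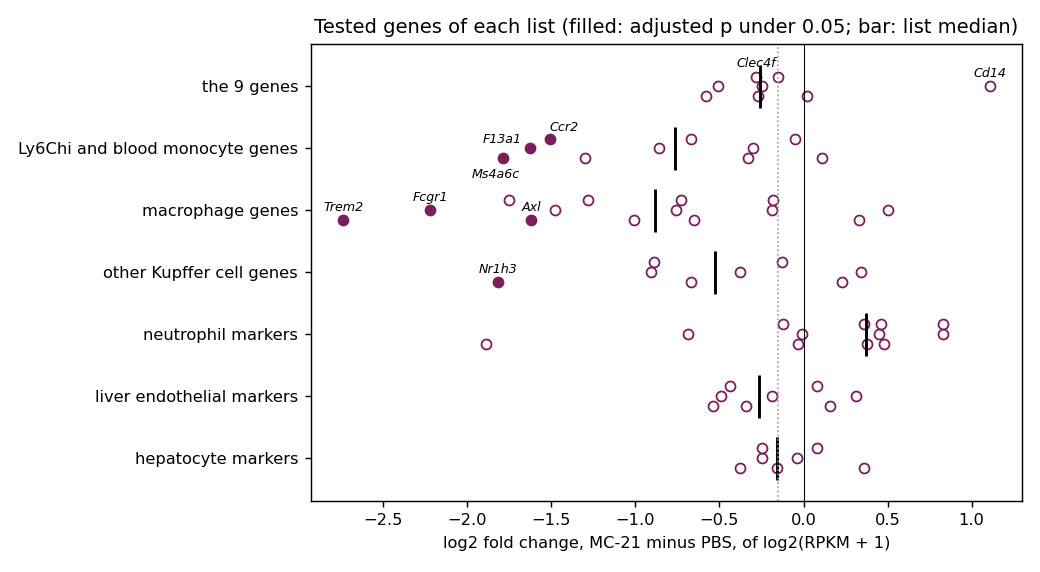
Differences (log2 fold change, MC-21 minus PBS, horizontal axis) of the tested genes of 7 lists, 1 circle a gene, with filled circles for an adjusted p under 0.05 by limma, vertical bars for list medians and the dotted line for the median of all genes tested. The medians are -0.26 for the 9 genes, -0.76 for monocyte, -0.88 for macrophage and -0.52 for other Kupffer cell genes, and the 7 filled circles all lie at or below -1.51.

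**Figure D5:**
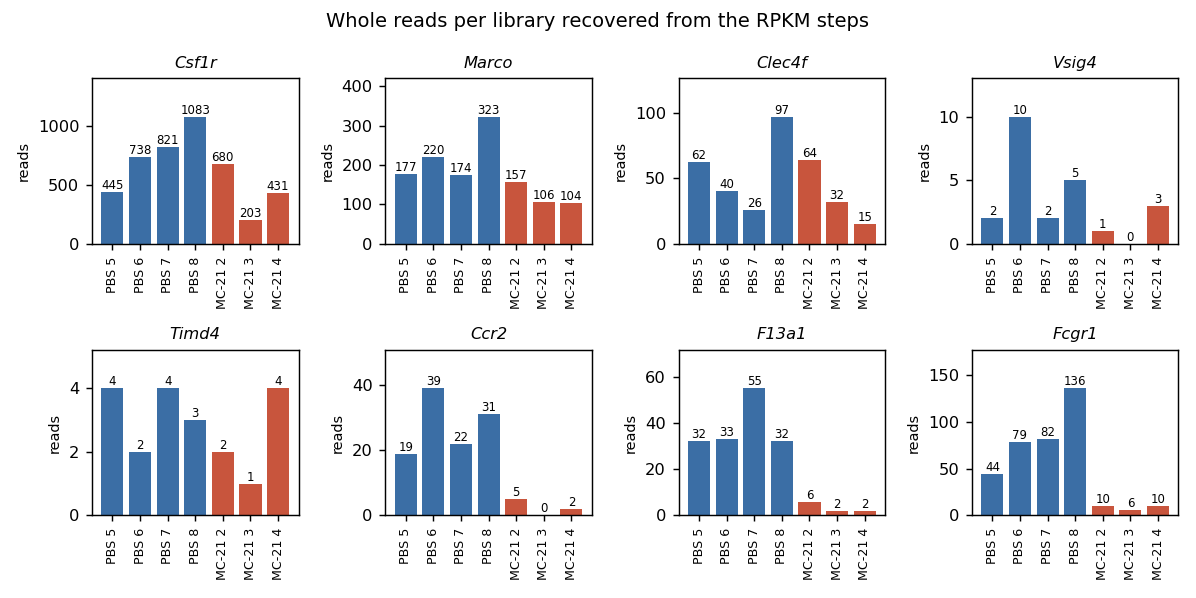
Whole reads per library for 8 genes (vertical axes, each starting at 0 with its own scale), with PBS libraries in blue and MC-21 libraries in red. Csf1r, Marco and Clec4f rest on 15 to 1083 reads with overlapping levels, Vsig4 and Timd4 on 10 or fewer, and Ccr2, F13a1 and Fcgr1 drop to 10 or fewer in every MC-21 library; bars are not corrected for depth.

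Whether any of the 9 genes changed by a different amount than the monocyte and macrophage genes that fell was not tested. Endothelial, hepatocyte and neutrophil marker lists held 0 genes called after adjustment by limma (0.625% of all genes tested). At an unadjusted p under 0.05 were 0 of 8, 0 of 7 and 4 of 12, against 14.7% of all genes tested. The neutrophil list was thus above that share, but on few genes and in both directions. S100a8, Retnlg and S100a9 had log2 fold changes of 0.83, 0.83 and 0.46, and Camp had -1.89. Their adjusted p-values were between 0.185 and 0.310 by limma. Of the neutrophil list only Camp passed the study's cutoffs, as lower. The part of these cells' RNA in the values of the 9 genes was not tested.

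The library-to-library pattern of each tested gene was compared with that of all other genes tested, by the root mean square difference of centred log2(RPKM + 1) over the 7 libraries. Cd14 was most like Cxcl3 (0.109), Adam8 (0.119) and Egln3 (0.129), a neutrophil-attracting chemokine, a membrane protease and an oxygen-dependent hydroxylase. Csf1r was most like Fkbp4 (0.102), Eno3 (0.128) and Cluap1 (0.129), and Marco most like Igflr1 (0.092), Ndrg3 (0.099) and Myo10 (0.101). For Adgre1 these were Gdap10 (0.165), Cltc (0.170) and Pts (0.188), and Mrc1, the mannose receptor of macrophages and sinusoidal endothelium, chosen after the values were seen, was in position 7 (0.254). Mrc1 had 13.8, 27.1, 17.7 and 19.2 RPKM in PBS replicates 5 to 8 and 26.5, 27.3 and 6.02 RPKM in MC-21 replicates 2 to 4. Maf was most like Akr1a1 (0.156), Scp2 (0.164) and Tgtp1 (0.184). Mpeg1 was most like Ctcf (0.119), with Cmpk1 at 0.145, and Clec4f most like Gins1 (0.105), Cxx1c (0.150) and Ces2e (0.189). Ly6c2, the gene that varied least, was most like Oxsr1 (0.073), Tmc6 (0.081) and Tyw1 (0.085). With 7 libraries and 9594 genes such likeness is a description only.

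Promoter windows from RefSeq (build GRCm38.p6), which reach from upstream of the start into the first transcribed bases, were searched on both strands for Mpeg1, Marco, Vsig4, Clec4f and Ly6c2. A gene was counted if any of its windows held a word, whereas the shares are of single windows, so that the measures differ. The ETS-type word GGAAGT, which PU.1 can bind, was in 3 of these 5 (Vsig4, Clec4f and Ly6c2) and in 23.8% of all windows. TGCTGA, a core word of MAF sites, was in Vsig4 and Clec4f and in 19.5% of all windows, and the C/EBP-type word TTGCNNAA was in 0 of 5 and in 10.8% of all windows.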

How the data were processed

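Neutrophil 3′ RNA-seq libraries of 4 PBS-treated and 3 MC-21-treated mice were analysed. Per the study's methods and the labels, reads were sequenced on a NextSeq, mapped to mm9 with HISAT 0.1.5, converted with SAMtools and summarised in Partek 6.6; the authors deposited RPKM values per gene and library. The transcript annotation, counting of multi-mapping or overlapping reads, strand and molecular barcodes are not given in the sources used here. RPKM divides 3′ reads by transcript length, which can distort levels between genes.

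Differences were computed on log2(RPKM + 1), without further scaling, for genes whose mean reached 1 RPKM, by limma 3.58.1 (lmFit, then eBayes with its trend option, R 4.3.3); p-values were adjusted by Benjamini-Hochberg across the 9594 genes; a fold change on this scale understates that of low genes. The study used an unpaired test per gene. The exact permutation tests were two-sided. P-values measure the spread between mice. On simulated data for 9594 genes with 200 changed by 2 log2 units, 194 (97%) were called, with 12 unchanged genes. The changed genes were drawn only from those above a set mean level, with independent normal noise. Smaller changes were not simulated, so that this share does not apply to the 9 genes or to low genes. Whole reads were recovered where all values of a gene lay within 0.02 of a whole number of reads at the relative depths, which held for 903 of 1000 randomly drawn tested genes (90.3%) and for 7 of the 9 genes reported; 613 of 940 low genes with 1 transcript (65.2%) gave the same depth within 1%. A limit of 3 reads for a count of 0 covers counting error only.

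The 9 genes and the gene lists were chosen with earlier results of these data known. Named from the lists are genes with an adjusted p under 0.05, up to 4 others with the highest mean RPKM, genes of the sort gate, and defining markers (Timd4, Cd163, Siglec1, Ly96, Il34). Tlr4, Cd36, Mrc1, Ly6c1 and Camp were chosen after values were seen. Coordinates came from the GENCODE annotation of mm9, in which all 9 genes were found. Alternatives were a pseudocount of 0.1, no filter, a mean of at least 5 RPKM, median centring, quantile normalization, no trend, no moderation and leaving out each library. Python 3.11.15, numpy 2.4.6, pandas 2.3.3, scipy 1.17.1 and matplotlib 3.10.9 were used. Some single-gene results are not reported here, and those genes stayed in the fits and list counts.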

Additional observations from a re-analysis of the deposited data

Results flagged for a closer look

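Among the 4 PBS libraries, Mpeg1 was lowest in PBS replicate 5, with 7.17 RPKM against 15.6 to 16.7 RPKM in the others, a gap of 0.879 of the whole range, above Dixon's 95% critical value for 4 values. Marco was highest in PBS replicate 8, with 41.1 RPKM against 32.2 to 33.3 RPKM, a gap of 0.883 of the range. In all 17 genes were screened in this way, and chance alone passes the limit in about 1 of 20.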

How the results depend on the processing

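No paired analysis was possible because the groups share no replicate number. Of the 9 genes, 1 (Cd14) had an adjusted p under 0.05 with libraries centred on their medians (log2 fold change 1.27, adjusted p = 0.0465 by limma) against 0 as deposited, and 0 passed the study's cutoffs without PBS replicate 5 against 1, a count between 0 and 1 over the left-out libraries. Without a filter, and without moderation, 0 genes of the monocyte, macrophage, other Kupffer cell and all other lists were called, against 3, 3, 1 and 1. The monocyte list had 1 call at a mean of at least 5 RPKM, a setting that removes Ccr2 and F13a1. Over the fits that lacked 1 library, the monocyte list had 1 to 3 calls, the macrophage list 1 (without PBS replicate 8) to 4, the other Kupffer cell list 0 to 1 and all other lists 0 to 2. Adgre1 turned to -0.01 with a pseudocount of 0.1 and ranged from -0.39 to 0.73 with a library left out, Maf turned to 0.01 with centring and 0.01 with quantile normalization and ranged from -0.45 to 0.15, and Clec4f ranged from -0.56 to 0.21. The causes were not tested. Csf1r, Cd14, Mpeg1, Marco, Ly6c2 and the 8 genes called from the lists kept their direction under all alternatives run. Leaving out libraries was not run for exact tests, whose smallest p would then be 0.1 or 0.0667. Depth limits Vsig4 and Timd4, which rest on 10 or fewer reads a library.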

Other observations

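Markers of further cell types in the liver were mostly low. The 2 tested stellate cell markers, the 3 tested dendritic cell markers, the 4 tested T and NK cell markers, the 3 tested B cell markers, the 2 tested eosinophil, basophil and mast cell markers, the 4 tested platelet markers and the 3 tested erythroid markers held 0 calls after adjustment by limma, with 0, 1, 1, 2, 0, 1 and 0 at an unadjusted p under 0.05. Batf3, a factor of dendritic cells that lymphoid cells also use, had 23.5 ± 3.48 RPKM (SD, n = 4) in PBS and 43.5 ± 17.5 RPKM (SD, n = 3) in MC-21 neutrophils (log2 fold change 0.80, adjusted p = 0.203 by limma), with every MC-21 library higher. Pf4, a platelet chemokine that macrophages can also express, had 128 ± 79.6 and 47.5 ± 12.3 RPKM (log2 fold change -1.26, adjusted p = 0.194 by limma), with every MC-21 library lower. The summed level of B cell markers was between 10.7 and 29.9 RPKM in PBS and between 6.14 and 9.73 RPKM in MC-21 neutrophils. S100a9 and S100a8, the most abundant neutrophil markers beside Retnlg, had log2 fold changes of 0.46 and 0.83, with adjusted p-values of 0.310 and 0.185 by limma.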
